A study of Mus musculus with 36 samples.

Results

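The subunits of the oxidative phosphorylation system were followed through 7 groups of mouse tissue. They were defined by symbol: protein-coding genes of the GENCODE mouse M21 annotation that start with Nduf followed by a, b, c, s or v and a digit, Sdha to Sdhd, and those that start with Uqcr, with Cox4 to Cox8 or with Atp5, together with the 13 proteins encoded by mitochondrial DNA. The rule gave 97 of the 53379 genes in the count tables. Of these, 84 were nuclear, with 35 in complex I, 4 in complex II, 8 in complex III, 20 in complex IV and 17 in complex V, and 13 were mitochondrially encoded, with 7, 1, 3 and 2 in complexes I, III, IV and V. Ndufa4 and Ndufa4l2 were counted with complex IV, where the Ndufa4 protein is known to sit. A few true subunits whose symbols differ, such as Ndufab1 and Cyc1, fall outside the rule.

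Oxidative phosphorylation couples electron transport along the inner mitochondrial membrane to ATP synthesis. Complexes I and II pass electrons from NADH and succinate to ubiquinone, complexes III and IV pass them on to oxygen by way of cytochrome c, and complex V uses the resulting proton gradient to make ATP. Complexes I, III, IV and V each join subunits from both genomes, whereas complex II is wholly nuclear, and the proximal tubule of the kidney is among the tissues richest in mitochondria. Several complex IV subunits come in pairs of genes, a ubiquitous form and a form known from heart and skeletal muscle (Cox6a2, Cox7a1, Cox8b), from lung or hypoxic cells (Cox4i2) or from testis (Cox6b2, Cox7b2, Cox8c).

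The tissues came from mice that model renal cancers driven by TFE3 fusions, and every block had been formalin-fixed and embedded in paraffin. Mice with Sglt2-Cre and the ASPSCR1-TFE3 LSL/+ allele, in which Cre recombinase under the Sglt2 promoter of the proximal tubule permits expression of the ASPSCR1-TFE3 fusion, gave 11 kidney tumor libraries from 6 mice, 4 retro-orbital tumors from 4 of these mice, 3 brain tumors from 3 of them and 4 non-transformed kidney samples from 4 of them. Sglt2-Cre mice without the fusion allele gave 6 control kidney libraries from 3 mice. Fetuses with Pax8-Cre, which acts across the developing nephron, and ASPSCR1-TFE3 LSL/+ gave 5 dysmorphic kidneys, and 3 age-matched fetuses, listed as Pax8-Cre in the sample labels and as carrying either single allele in the design text, gave control fetal kidneys. Ages were not given. Libraries of the same mouse and tissue were summed, so that n counts animals, and levels are CPM, counts scaled to the size of each library after TMM normalization.

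Depth was 80205573 to 121415057 counts per library. The 84 nuclear members took 1.10 to 2.26% of the counts of a kidney tumor library, and libraries of the same mouse could differ, with 1.16 and 2.26% in the 2 kidney tumors of mouse 2. Summed markers of the proximal tubule were 14430 to 15030 CPM in control kidneys, 680.7 to 10130 CPM in kidney tumors, 129.3 to 1255 CPM in retro-orbital tumors, 292.3 to 757.9 CPM in brain tumors, 1165 to 1404 CPM in control fetal kidneys and 45.5 to 878.9 CPM in dysmorphic kidneys. Skeletal muscle markers summed to 144.1 to 218.2 CPM in control kidneys but to 13380 to 16080 CPM in control fetal kidneys and 35730 to 93780 CPM in dysmorphic kidneys, so the fetal blocks held muscle RNA. Fewer cells of a type and less RNA per cell cannot be told apart in these bulk samples. Mouse Tfe3 had 18.5 to 35.1 CPM in kidney tumors and 18.2 to 25.5 CPM in control kidneys, and Aspscr1 21.1 to 43.2 and 32.1 to 40.2 CPM, so the levels of the fusion partners overlapped and did not check the labels. Y-linked transcripts marked 2 of the 6 fusion mice, none of the 3 control mice, 3 of the 5 dysmorphic and 1 of the 3 control fetuses as male. Whether counting used the read strand, and how reads matching more than 1 gene were treated, is not given in the sources used here.

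In control kidneys, levels per kb of transcript, the scale on which genes can be compared, were lowest for complexes I and II among the nuclear members. The median over members of the mean level was 157.3 CPM per kb for complex I, 160.0 CPM per kb for complex II, 375 CPM per kb for complex III, 370.7 CPM per kb for complex IV and 336.2 CPM per kb for complex V. Atp5h, a stalk subunit of ATP synthase, was the highest nuclear member at 1569 ± 241.9 CPM per kb (SD, n = 3), followed by Cox6b1 at 918.4 ± 178.8 CPM per kb. Among the mitochondrial members, mt-Cytb, the cytochrome b of complex III, stood at 3255 ± 667.3 CPM per kb and mt-Co1, the catalytic subunit of complex IV, at 2775 ± 553.9 CPM per kb. At the other end, Cox7b2 and Cox8c, the testis forms, had at most 0.757 and 0.0333 CPM in any animal and were not tested in most comparisons.

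A stretch of the mitochondrial genome had very low counts in every group, with no group mean above 45.9 CPM per kb for mt-Co2, mt-Co3, mt-Atp6, mt-Atp8, mt-Nd3 or mt-Nd4l. In control kidneys mt-Co2, the subunit that accepts electrons from cytochrome c, had 20.6 ± 9.37 CPM per kb, mt-Co3 15.03 ± 6.43 CPM per kb and mt-Atp6 11.2 ± 5.28 CPM per kb, although the mitochondrial genome is transcribed as long precursors. These genes have near-perfect nuclear copies in the reference. The start of mt-Co2 and of Gm28661, an annotated copy on chromosome 1, is printed from the annotated transcripts (build GRCm38) because the identity bears on how far any level in this stretch can be read. No base is in capitals, since all 60 are the same.
mt-Co2, chrM:7013-7072, plus strand: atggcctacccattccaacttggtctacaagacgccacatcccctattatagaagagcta
Gm28661, chr1:24615506-24615565, minus strand: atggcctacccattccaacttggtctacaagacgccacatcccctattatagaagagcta
The identity ran over 681 bases for mt-Co2, over 783 bases for mt-Co3 and its copy Gm28437, and over 876 bases for mt-Nd4 and Gm28439. Of all windows of 50 bases, 100% were shared for mt-Co2, 99.5% for mt-Atp6, 99.9% for mt-Co3, 98.0% for mt-Nd3 and 98.8% for mt-Nd4l. mt-Atp8, at 0.912 ± 0.289 CPM per kb, was lower still without sharing any window. The search covered annotated transcripts only. mt-Atp8 lies between mt-Co2 and mt-Atp6, whose copies are both on chromosome 1, and whether it has an unannotated copy there was not tested. mt-Cytb, mt-Nd1 and mt-Nd6 shared none either, and 51.1% of mt-Co1 was shared. The levels of the low stretch, mt-Co2, mt-Co3, mt-Atp6, mt-Atp8, mt-Nd3 and mt-Nd4l, are uncertain. The sums over mitochondrial members below rest almost wholly on the other 7. Of those, mt-Nd4 shared 62.2% of its windows, and the levels of mt-Co1 and mt-Nd4 are less certain than those of the rest. Among the 84 nuclear members, 35 shared at least 1 window with a gene elsewhere in the genome and 1, Atp5l, shared over 50% of them. With genes that overlap them on the chromosome included, 45 shared at least 1 window and 2 shared over 50%. All of the sharing of Ndufb6 (34.1%) and Uqcrc2 (24.8%) was of that kind.

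The nuclear members lie on 19 chromosomes and have short transcripts, with a median of 709 bases against 2278 bases for all nuclear protein-coding genes in the tables. Promoters from 250 bases before to 50 bases after the start site were available for 66 of the 84 nuclear members in RefSeq (build GRCm38.p6), 71 promoters in all. They were searched on both strands for motifs of regulators known from nuclear genes of mitochondria. The motif AAGATGGCG of YY1 was in 9.86% of the 71 member promoters and in 1.4% of all 32851 promoters, and GCATGCGC, the core of the NRF1 site, was in 14.08 and 2.71%. CCGGAAGT of ETS factors was in 7.04 and 3.89%, TCAAGGTCA of estrogen-related receptors in 2.82 and 0.42%, and CACGTG, the E-box that TFE3 can bind, in 8.45 and 7.15%. TCACGTGA, a longer form that contains the E-box and is known from lysosomal genes, was in 2.82 and 0.97%. The member promoters with a match for the longer E-box were both of Ndufa7. Their windows overlap and hold the same site, so the member share rests on a single site, which also enters the E-box share. Of the 7 YY1 matches in member promoters, 6 began 20 to 40 bases after the start site, against 29.3% of the promoters of all genes with a match. The following 30-base windows show examples from complexes I, II and V, with the motif in capitals (with overlapping matches merged).
Ndufs6, YY1, chr13:73328433-73328462, minus strand: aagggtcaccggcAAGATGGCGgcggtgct
Ndufs7, YY1, chr10:80249463-80249492, plus strand: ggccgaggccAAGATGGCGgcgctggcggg
Ndufa9, YY1, chr6:126849096-126849125, minus strand: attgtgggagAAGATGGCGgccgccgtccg
Ndufs4, YY1, chr13:114388045-114388074, minus strand: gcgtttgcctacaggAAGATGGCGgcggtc
Ndufa11, NRF1, chr17:56717691-56717720, plus strand: acctgcactgcGCGCATGCGCgcacgcctt
Atp5g2, NRF1, chr15:102671071-102671100, minus strand: tggctccggccGCGCATGCGCagagccttc
Sdhb, NRF1, chr4:140961206-140961235, plus strand: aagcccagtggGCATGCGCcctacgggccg
Ndufa7, longer E-box, chr17:33824488-33824517, plus strand: gcggagaggagTCACGTGAgcaggggatgc
Atp5g3, ERR, chr2:73911359-73911388, minus strand: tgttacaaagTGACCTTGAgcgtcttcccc
In these windows the match is the written motif or its reverse complement. A match describes letters and was not tested as a binding site.

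Summed over all nuclear members, fetal kidneys stood apart from every adult tissue. The sum was 17070 to 21640 CPM in the 3 control mice, 18060 to 23700 CPM in the 4 non-transformed kidneys, 12060 to 23660 CPM (median 22080) in kidney tumors of 6 mice, 15260 to 20120 CPM in 4 retro-orbital tumors and 19430 to 26260 CPM in 3 brain tumors. It was 9147 to 11030 CPM in 3 control fetuses and 9051 to 10210 CPM in 5 dysmorphic fetuses. No fetal kidney reached the lowest adult tissue, which was the kidney tumor tissue of mouse 1 at 12060 CPM, while the adult groups overlapped. In the 2 libraries of that mouse the share of ribosomal protein genes was 4.56 and 4.12%, against 4.57 to 7.30% in the other 9 kidney tumor libraries. Other genes with transcripts under 1200 bases took 10.37 and 9.26%, against 10.42 to 14.2%. The part of these values in its low sum was not tested. The mitochondrial sum did not divide the groups this way, with 15690 to 23060 CPM in control mice, 18480 to 22660 CPM in control fetuses and 20190 to 33980 CPM in dysmorphic fetuses. As a result the ratio of the mitochondrial to the nuclear sum was 0.967 ± 0.085 (SD, n = 3) in control kidneys, 2.08 ± 0.315 (n = 3) in control fetal kidneys and 2.75 ± 0.502 (n = 5) in dysmorphic kidneys.

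**Figure D1:**
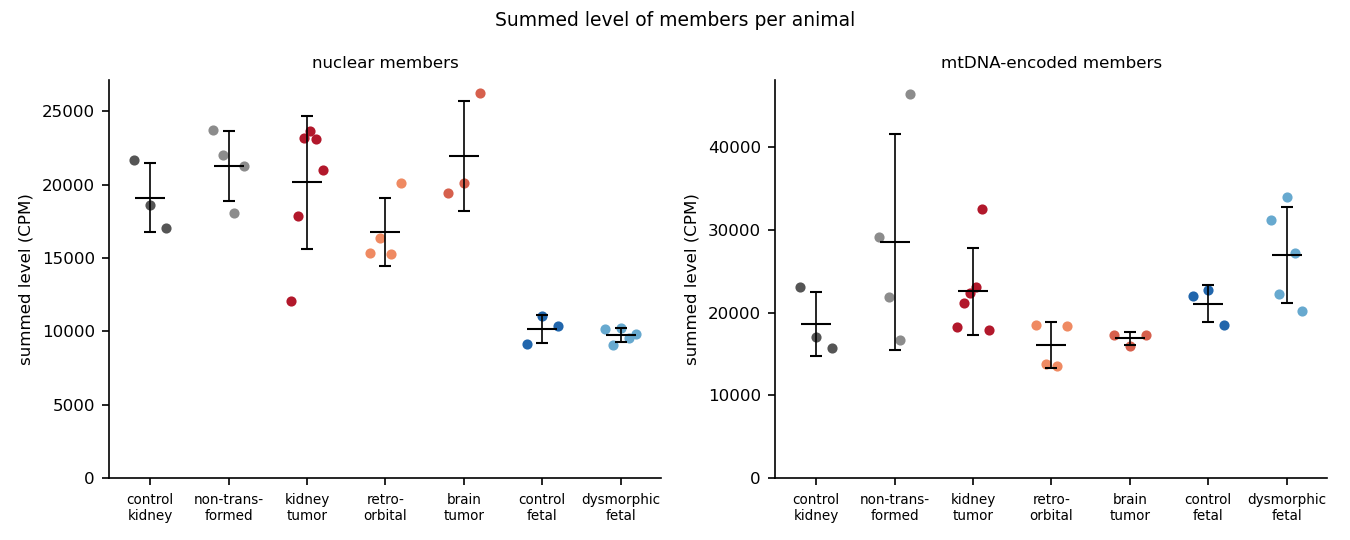
Summed level of the 84 nuclear members (left) and the 13 mitochondrially encoded members (right), in CPM, for each animal (points) of the 7 groups, with mean and SD (bars). The nuclear sum of every fetal kidney is at most 11030 CPM and that of every adult tissue at least 12060 CPM, while the mitochondrial sums overlap.

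Nuclear subunits of all 5 complexes were lower in control fetal than in control adult kidneys, and mitochondrially encoded subunits were not. Of the 95 members tested, 62 were lower and 4 higher at an edgeR adjusted p under 0.05, where 49.0% of all 22859 genes tested were called, 25.1% higher and 23.9% lower. By complex, 33 of 35 nuclear members of complex I were lower, with a median log2 fold change of -1.11, 3 of 4 in complex II (-1.27), 7 of 8 in complex III (-1.06), 9 of 18 tested in complex IV (-0.58) and 10 of 17 in complex V (-0.55). The median was -0.89 over all nuclear members and 0.19 over the 13 mitochondrial members, beside 0.03 over all genes. All 35 nuclear members of complex I and all 4 of complex II had every fetal value below every adult value, and 72 members of 95 were separated in this way, where 33.4% of all genes tested were.

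Among members that averaged at least 3 on the log2 CPM scale, to which the extremes named per complex are limited throughout, the lowest values were those of Ndufb9, Sdha, Uqcr11, Cox7a1 and Atp5d. Ndufb9, an accessory subunit of complex I, had 121.9, 133.2 and 144.8 CPM in the control mice and 33.3, 39.0 and 42.5 CPM in the control fetuses. Its log2 fold change was -1.72 (SE 0.14, edgeR adjusted p = 0.000234). Sdha, the flavoprotein that oxidizes succinate in complex II and the tricarboxylic acid cycle, had 733.1, 806.3 and 833.3 CPM in adults and 199.6, 282.6 and 294.2 CPM in fetuses. The adult levels were well clear of the fetal ones (log2 fold change -1.53, SE 0.18, edgeR adjusted p = 0.000842). Uqcr11, a small subunit of complex III, changed by -1.51 (SE 0.18, edgeR adjusted p = 0.000958), Atp5d, the delta subunit of the rotor of ATP synthase, by -1.21 (SE 0.19, edgeR adjusted p = 0.00282) and Cox7a1 by -1.31 (SE 0.30, edgeR adjusted p = 0.0118). At the upper end of each complex, the fold change was -0.36 for Ndufc2, -0.67 for Sdhd, -0.41 for Uqcrh and -0.02 for Atp5mpl, none of which passed the test.

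The 4 members that were higher in fetal kidneys were 3 restricted forms of complex IV subunits and mt-Nd6. Ndufa4l2, a relative of Ndufa4 known as a target of hypoxia-inducible factor, had 2.88 to 4.22 CPM in the adult controls and 15.3 to 21.5 CPM in the control fetuses (log2 fold change 2.47, SE 0.23, edgeR adjusted p = 0.000373). Cox6a2, the muscle form, had 2.28 to 4.86 CPM in adults and 15.1 to 30.1 CPM in fetuses (2.73, SE 0.42, edgeR adjusted p = 0.00247). The muscle forms did not move together, since Cox7a1 was lower and Cox8b differed by 0.01 (SE 0.53, edgeR adjusted p = 0.993). Of 12 skeletal muscle markers, 11 were higher in the fetal kidneys and their part in the Cox6a2 value was not tested. Cox4i2 rose by 1.66 (SE 0.35, edgeR adjusted p = 0.00851). mt-Nd6, the mitochondrial member encoded on the other strand from the rest, had 69.2 to 91.2 CPM in adults and 150.6 to 204.6 CPM in fetuses (1.22, SE 0.19, edgeR adjusted p = 0.00247), whereas the value of mt-Cytb was 0.14 (SE 0.19, edgeR adjusted p = 0.588).

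**Figure D2:**
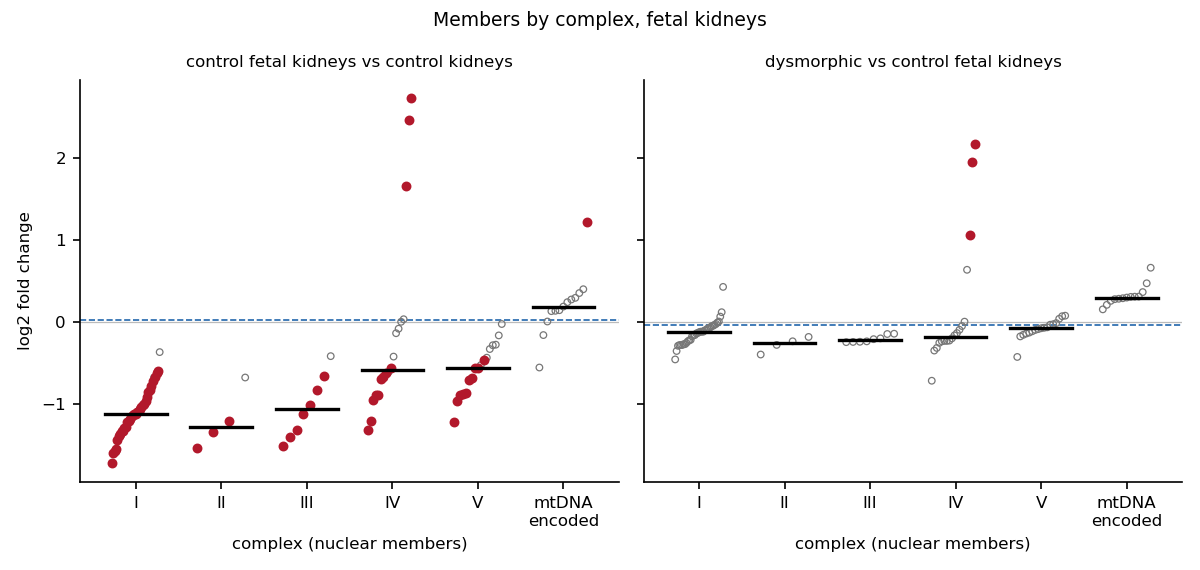
Log2 fold change of each tested member by complex, nuclear members in the first 5 columns and mitochondrially encoded members in the last, for control fetal against control adult kidneys (left) and dysmorphic against control fetal kidneys (right). Filled points passed an edgeR adjusted p of 0.05, black bars are medians and the dashed line is the median of all genes. On the left the nuclear medians lie between -1.27 and -0.55 and the mitochondrial median at 0.19.

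**Figure D3:**
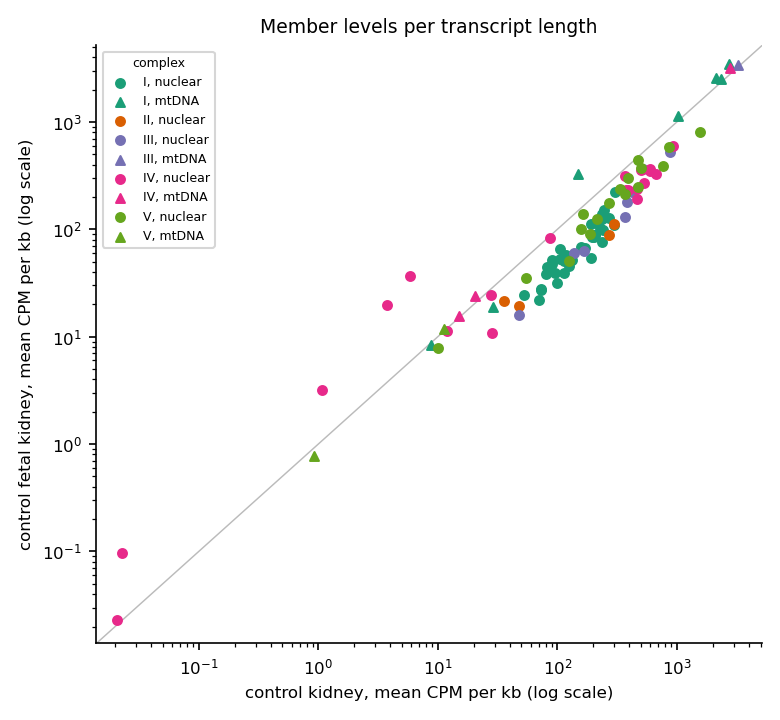
Mean level per kb of transcript in control fetal (vertical, n = 3) against control adult kidneys (horizontal, n = 3) on log axes, colored by complex, with circles for nuclear and triangles for mitochondrially encoded members and a line of equal levels. Nuclear members of complexes I to III lie below the line, and Cox6a2, Ndufa4l2 and Cox4i2 lie above it.

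Genes that build or feed the complexes showed the same direction in this comparison. Where 23.9% of all genes were called lower and 25.1% higher, those lower in fetal kidneys were 13 of 16 assembly factors of complex I, 3 of 4 of complex II, 4 of 6 of complex III, 13 of 21 tested of complex IV and 3 of 4 of complex V, 11 of 14 genes of electron carriers, 12 of 13 genes of the tricarboxylic acid cycle and 10 of 18 genes that express the mitochondrial genome, with none higher in any of these lists. Their medians were between -0.53 and -1.23. Examples were the complex I assembly factor Ecsit at -1.90 (SE 0.13), the ubiquinone synthesis kinase Coq8a at -2.73 (SE 0.17) and Suclg2, a subunit of succinyl-CoA ligase, at -1.66 (SE 0.14). Of 14 regulators of mitochondrial biogenesis, 8 were lower, among them the coactivator Ppargc1a at -1.96 (SE 0.29) and the receptor Esrra at -1.53 (SE 0.41), and Pprc1 was higher at 0.87 (SE 0.23). Proximal tubule markers were lower for 11 of 12, and proliferation markers were higher for 8 of 8, and the part of tissue makeup in the values of the members was not tested. The age of the animals, the model and the count table cannot be told apart here. Adult controls carry Sglt2-Cre and the fetal controls were of the Pax8-Cre model, and the adult and fetal libraries came in separate count tables. With upper quartile scaling, which moved the median of all genes to 0.26, 46 members were lower and 4 higher. Under that scaling 4218 of all 22859 genes were called lower and 6881 higher.

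Few members differed between dysmorphic kidneys and the fetal controls, a share near that of all genes, and those were restricted isoforms. Of 95 tested, 3 were higher and 0 lower, where 2.67% of all genes were called, and 9 members had an unadjusted p under 0.05, as had 20.3% of all genes. Cox8b had 10.8, 15.6, 19.6, 22.3 and 27.0 CPM in the dysmorphic and 3.11, 4.42 and 4.73 CPM in the control kidneys, with no overlap (log2 fold change 2.17, SE 0.33, edgeR adjusted p = 0.035). Cox6a2 had 54.5, 65.5, 105.4, 128.3 and 140.2 CPM against 15.1, 29.0 and 30.1 CPM (1.95, SE 0.40, edgeR adjusted p = 0.0457). Both encode muscle forms, and in the same kidneys 9 of 12 skeletal muscle markers were higher, with summed levels of 35730 to 93780 against 13380 to 16080 CPM. The part of muscle RNA in these values was not tested. Ndufa4l2 had 30.5 to 48.3 CPM against 15.3 to 21.5 CPM, again without overlap (1.06, SE 0.18, edgeR adjusted p = 0.0353).

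Most other nuclear members had values slightly below 0 in dysmorphic kidneys and the mitochondrial members slightly above 0, and none of them passed the test. The median log2 fold change was -0.14 over nuclear members, with 70 of 82 below 0, and 0.30 over mitochondrial members, with all 13 above 0, beside -0.04 over all genes. The lowest values were -0.45 for Ndufa6 (SE 0.11, edgeR adjusted p = 0.0723), -0.39 for Sdhd, -0.24 for Uqcrq, -0.71 for Cox6b2 (SE 0.20, edgeR adjusted p = 0.103) and -0.42 for Atp5s, and the highest mitochondrial value was 0.67 for mt-Nd6 (SE 0.18, edgeR adjusted p = 0.0982). Over the 17 alternatives the log2 fold changes were 2.01 to 2.31 for Cox8b, 1.69 to 2.11 for Cox6a2 and 0.95 to 1.18 for Ndufa4l2, and the 3 passed the test in 9, 7 and 9 of them. With DESeq2, 4 members were higher and 4 lower, where 2026 of all 22690 genes were called higher and 700 lower. edgeR called 0 with all 7 groups in a joint fit (5 at an unadjusted p under 0.05, beside 15.6% of all genes) and 0 with sex as a covariate (13, beside 20.6%). Without dysmorphic fetus 1, 3 or 4, or without any one of the 3 control fetuses, 0 members were called. Without dysmorphic fetus 2 it was 4, where 1247 of all 22362 genes were called. In the 6 fits without a call, edgeR gave 8 to 23 members with an unadjusted p under 0.05, beside 13.7 to 19.6% of all genes, and it called 0 of the 22481 to 23530 genes tested. Of all genes it called 271 in the joint fit and 5 with sex as a covariate, against 605 in the fit reported. The fetuses also fell under 2 title prefixes, each with fetuses of both groups, and with the prefix as a block Cox6a2 missed the threshold (2.02, SE 0.41, edgeR adjusted p = 0.054) while Cox8b and Ndufa4l2 passed.

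Between kidney tumors and control kidneys few members differed, in complexes I and IV. Of 95 tested, 3 were higher and 0 lower, where 19.0% of all 23578 genes were called, 12.5% higher and 6.51% lower. Ndufa4l2 had 6.03 to 11.3 CPM (median 8.33) in the tumors of 6 mice against 2.88, 3.47 and 4.22 CPM in control kidneys (log2 fold change 1.26, SE 0.26, edgeR adjusted p = 0.0125). Cox4i2 had 1.09 to 2.28 CPM (median 1.83) against 0.619, 0.649 and 1.05 CPM (1.22, SE 0.33, edgeR adjusted p = 0.0344), so both were low in either group but did not overlap. Ndufc2, an accessory subunit of the membrane arm of complex I, had 217.4 to 403.4 CPM (median 344.1) against 182.1, 197.1 and 244.8 CPM and overlapped (0.68, SE 0.20, edgeR adjusted p = 0.0405).

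All 4 members of complex II had log2 fold changes below 0, with a median of -0.37, and all 18 tested nuclear members of complex IV had values above 0, with a median of 0.49, beside 0.05 over all genes. Sdha had 316.7 to 678 CPM (median 427.6) in tumors and 733.1 to 833.3 CPM in control kidneys, with no overlap (-0.71, SE 0.22, edgeR adjusted p = 0.0529). Uqcrc2, a core protein of complex III, had 381.9 to 636.7 CPM (median 493.6) against 715.2 to 749 CPM, also with no overlap (-0.52, SE 0.17, edgeR adjusted p = 0.0574). The largest value was that of Cox8b at 2.78, with an SE of 1.74 and an edgeR adjusted p of 0.273, and that of Cox6a2 was 2.48 (SE 1.10, edgeR adjusted p = 0.136). Skeletal muscle markers summed to 60.4, 900.6, 62.7, 1378, 251.3 and 41.6 CPM in the kidney tumors of mice 1 to 6 and to 144.1 to 218.2 CPM in control kidneys, with 0 of 11 markers called and a median of 3.01. Markers of the proximal tubule had a median of -2.06 and those of the thick limb, distal tubule and collecting duct -1.66, and all 8 proliferation markers were higher, with a median of 3.48. The part of these cell types in the values of complexes II and IV, Cox8b and Cox6a2 included, was not tested. In complexes III and V and among mitochondrial members the highest values were 0.59 for Uqcrq, 0.56 for Atp5j2 and 0.52 for mt-Nd6 (SE 0.16, edgeR adjusted p = 0.0539), and the lowest in complexes I and V were -0.44 for Ndufa9 and -0.18 for Atp5g1. The medians were 0.19 over nuclear and 0.24 over mitochondrial members, with 0.30 over the 7 outside the low stretch and -0.05 over the 6 of the stretch. The mitochondrial sum was 32440 CPM in the tumors of mouse 5 against 17920 to 23070 CPM in the other mice and 15690 to 23060 CPM in control mice.

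The kidney tumor calls depended on which animals were included. Without mouse 1, whose tumors had the lowest nuclear sum, 19 members were higher and 0 lower, 19 of 95 where 13.7% of all genes in that fit were called higher, and without control mouse 2 or control mouse 3 none was called, with 6 and 5 at an unadjusted p under 0.05, beside 25.3 and 25.5% of all genes. In those fits the calls among all genes were 1163 and 1207, against 4474 in the fit reported. Over the 17 alternatives the log2 fold changes were 1.15 to 1.41 for Ndufa4l2, 1.10 to 1.51 for Cox4i2 and 0.61 to 0.82 for Ndufc2, and they passed the test in 15, 12 and 9. The count was 1 without mouse 2, 2 without mouse 3, mouse 6 or control mouse 1, 3 without mouse 4 and 4 without mouse 5. In these fits 2084 to 5856 of all genes were called. DESeq2 called 5 higher and 2 lower, the 2 being Sdha and Uqcrc2, where it called 4259 of all 23578 genes higher and 2811 lower. With sex as a covariate, 8 were higher, where 3774 of all 23578 genes were called higher and 2344 lower. Transcript length moved with the values, since the median of nuclear members was 0.39 below 700 bases, 0.14 from 700 to 1200 bases and -0.16 above, where other protein-coding genes had 0.42, 0.22 and 0.04. The part of length in the values of complexes II and IV was not tested.

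In the lists around the complexes, most genes did not pass the test between kidney tumors and control kidneys, and more of those that did were lower than higher. Where 12.5% of all genes were called higher and 6.51% lower, those lower were 2 of 16 assembly factors of complex I, 0 of 21 of complex IV, none of complexes II and III, 1 of 4 of complex V, 2 of 13 genes of the tricarboxylic acid cycle and 3 of 18 genes that express the mitochondrial genome, with Twnk, the mitochondrial DNA helicase, at -0.93 (SE 0.18). Of 14 biogenesis regulators, 4 were lower, among them Ppara at -1.87 (SE 0.28) and Esrrg at -1.36 (SE 0.34), and Pprc1 was higher at 1.24 (SE 0.30). Of 14 genes of electron carriers, 1 was higher and 1 lower. The median log2 fold change was -0.49 over electron carriers, -0.41 over biogenesis regulators, -0.36 over genes that express the mitochondrial genome, -0.33 over the tricarboxylic acid cycle, -0.13 over complex I and -0.09 over complex IV assembly factors, beside 0.05 over all genes. The 2 mitochondrial ribosomal RNAs, mt-Rnr1 and mt-Rnr2, were lower at -2.43 (SE 0.34) and -2.42 (SE 0.41). Both were low for libraries made without removal of ribosomal RNA, with 0.0047 to 0.211% of the counts of a library against 1.45 to 4.41% for the 13 mitochondrial messenger RNAs, and whether reads of ribosomal RNA were removed before counting is not given in the sources used here. Between kidney tumors and control kidneys no mitochondrial messenger RNA passed the test. Between non-transformed and control kidneys mt-Rnr1 and mt-Rnr2 had -1.65 (SE 0.32, edgeR adjusted p = 0.173) and -1.80 (SE 0.38, edgeR adjusted p = 0.178). Between kidney tumors and non-transformed kidneys they had -0.80 (SE 0.34, edgeR adjusted p = 0.128) and -0.66 (SE 0.41, edgeR adjusted p = 0.276).

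Against non-transformed kidneys, which came from 4 of the 6 mice with kidney tumors, Cox4i2 was higher and Sdha lower in kidney tumors, 2 of 95 members, where 17.1% of all genes were called. Cox4i2 had 0.694, 0.84, 0.95 and 0.966 CPM in the non-transformed kidneys, below every tumor (log2 fold change 1.01, SE 0.28, edgeR adjusted p = 0.0351). Sdha had 653.1, 765.9, 852.7 and 875 CPM there, overlapping the tumors of mouse 4 at 678 CPM (-0.76, SE 0.21, edgeR adjusted p = 0.0352). With mouse as a block in the 4 mice that gave both tissues, neither passed the test, with 0.92 for Cox4i2 (SE 0.33, edgeR adjusted p = 0.174) and -0.69 for Sdha (SE 0.27, edgeR adjusted p = 0.199), and 2 members had an unadjusted p under 0.05, beside 23.6% of all genes. That fit called 847 of 20575 genes, 21 of them lower. The medians were -0.10 over nuclear and -0.40 over mitochondrial members, beside -0.02 over all genes, and all 13 mitochondrial members had values below 0. Within mice the direction was split. The mitochondrial sum was 18300 and 32440 CPM in the tumors of mice 1 and 5 against 29110 and 46390 CPM in their non-transformed kidneys. In mice 3 and 4 it was 22410 and 23070 CPM in tumors against 21820 and 16630 CPM. Over the 7 mitochondrial members outside the low stretch the median was -0.34 and the lowest value -0.41, for mt-Cytb, while the 6 of the stretch had a median of -0.80 and a lowest value of -1.06, for mt-Atp6. Values at the ends of complexes I, III and V, none called, were 0.39 for Ndufa7, -0.54 for Ndufv1, 0.27 for Uqcr11, -0.49 for Uqcrc2, 0.17 for Atp5g2 and -0.45 for Atp5s. The markers of the proximal tubule had a median of -2.17, those of blood -1.06 and those of skeletal muscle 2.26 with 1 of 11 called higher, and all 8 proliferation markers were higher, with a median of 3.46. Their part in the members' values was not tested. DESeq2 called 2 higher and 3 lower, where it called 3694 of all 21930 genes higher and 2310 lower. The count was 0 without mouse 2 or mouse 3 and 1 without any other mouse. Leaving out a mouse, the calls among all genes were 1252 to 3873, against 3755 in the fit reported.

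Non-transformed kidneys differed from control kidneys in none of the 95 members, where 0.00952% of all genes (2 of 21019) were called. By edgeR 8 members had an unadjusted p under 0.05, beside 11.7% of all genes, and DESeq2 also called 0, with 13 at an unadjusted p under 0.05, beside 12.9%. The median over mitochondrial members was 0.71, with all 13 above 0, and over nuclear members 0.19, beside 0.03 over all genes. Mouse 5 had the highest mitochondrial level, with mt-Co1 at 9756 CPM against 3829, 4857 and 6204 CPM in the other mice and 3644, 3959 and 5258 CPM in control kidneys. Without mouse 5 the mitochondrial median was 0.25, and with sex as a covariate it was -0.01. By Y-linked transcripts mice 1 and 5 of this group were male and all control mice female. The parts of sex and of mouse 5 in the value were not told apart. Among the nuclear members, values were 0.67 for Ndufb4, 0.43 for Uqcrq, 0.51 for Cox7c, -0.38 for Cox6b2 and 0.57 for Atp5mpl.

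**Figure D4:**
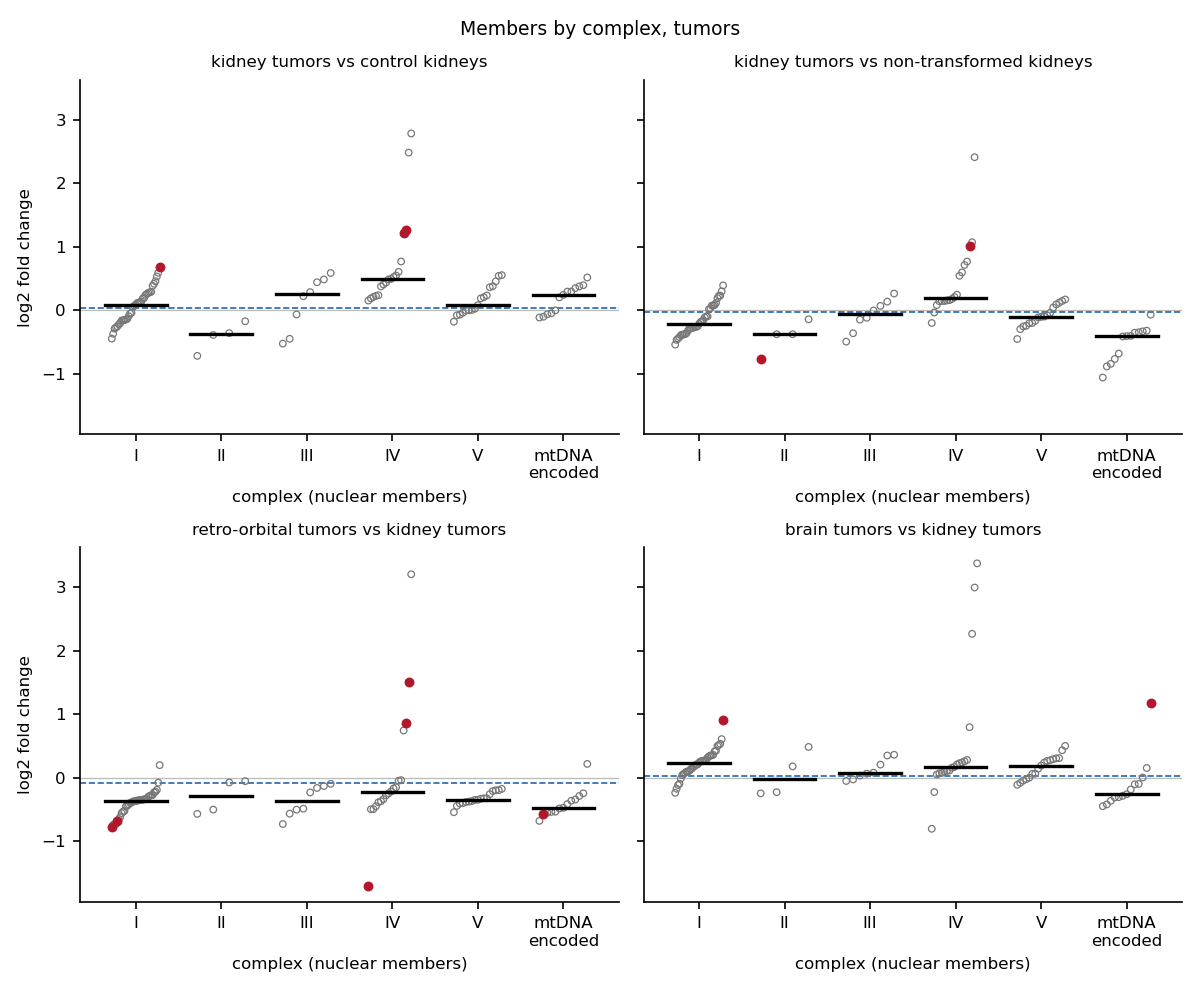
Log2 fold change of each tested member by complex, nuclear members in the first 5 columns and mitochondrially encoded members in the last, in 4 comparisons of tumors. Filled points passed an edgeR adjusted p of 0.05, black bars are medians and the dashed line is the median of all genes. Complex IV lies above 0 and complex II below 0 for kidney tumors against control kidneys, and 89 of 95 members lie below 0 for retro-orbital against kidney tumors.

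Retro-orbital tumors had less Ndufa4 and more of its relative Ndufa4l2 than kidney tumors. Of 95 members, 2 were higher and 4 lower, where 17.7% of all genes were called. Ndufa4 had 67.5, 70.9, 106 and 141 CPM in the retro-orbital tumors against 181.2 to 368.2 CPM (median 336.4) in kidney tumors, with no overlap (log2 fold change -1.70, SE 0.28, edgeR adjusted p = 0.0038), and it passed the test in 14 of 14 alternative settings. Ndufa4l2 had 9.52, 16.5, 17.0 and 18.7 CPM against 6.03 to 11.3 CPM (0.85, SE 0.23, edgeR adjusted p = 0.0312). Per kb, Ndufa4l2 made up 3.17 to 10.9% of the pair in retro-orbital tumors and 0.818 to 2.09% in kidney tumors. Cox4i2 had 2.89, 5.90, 5.93 and 5.98 CPM, above every kidney tumor (1.50, SE 0.28, edgeR adjusted p = 0.00674).

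The other members mostly had values slightly below 0, and 3 of them passed the test. Ndufs6, a zinc-binding subunit of complex I, had 58.9, 61.6, 70.7 and 96.1 CPM against 78.5 to 155 CPM (median 128.3), with some overlap (-0.78, SE 0.20, edgeR adjusted p = 0.0262), and Ndufv3, of the NADH-oxidizing module, changed by -0.68 (SE 0.16, edgeR adjusted p = 0.0178). mt-Nd5 had 3026 to 4069 CPM against 4070 to 7317 CPM, which only just did not overlap (-0.57, SE 0.18, edgeR adjusted p = 0.049), and it passed in 1 of 14 alternative settings. In all, 89 of 95 members had values below 0, with medians of -0.35 over nuclear and -0.47 over mitochondrial members, beside -0.09 over all genes. In the same comparison the markers of the proximal tubule had a median of -3.43 and those of the thick limb, distal tubule and collecting duct -3.35, with none called, and all 8 proliferation markers were higher, with a median of 1.05. The part of these cell types in the members' values was not tested. Under upper quartile scaling the nuclear median was -0.24 and that of all genes 0.03. Further values, none called, were -0.57 for Sdha, -0.73 for Uqcr10, -0.54 for Atp5e, 0.20 for Ndufc2 and 0.22 for mt-Nd6. With mouse as a block in the 4 mice that gave both tissues, 1 member was higher and 5 lower, where 1247 of all 20462 genes were called higher and 1430 lower. Cox4i2 then missed the threshold (1.50, SE 0.36, edgeR adjusted p = 0.0525), as did mt-Nd5 (-0.54, SE 0.24, edgeR adjusted p = 0.185), and Uqcr10 (-0.79, SE 0.16, edgeR adjusted p = 0.0363) and Ndufa2 passed. Without mouse 1, which gave no retro-orbital tumor, 2 were higher and 24 lower, where 9.94% of all genes were called higher and 9.54% lower. Without mouse 2 or mouse 3 the count was 2 in all, beside 1805 of 22403 and 1635 of 22574 genes. DESeq2 called 2 higher and 7 lower, where it called 2693 of all 22136 genes higher and 3282 lower. It gave no adjusted p for Cox8b and Cox6a2.

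Cox8b, the muscle form of a small complex IV subunit, had a level in retro-orbital tumors that no other group reached. It had 232.6, 280.5, 294.1 and 298.6 CPM there, 64.7, 126 and 213.7 CPM in brain tumors, and 0.989, 3.35, 2.80, 35.0, 137.4 and 0.922 CPM in the kidney tumors of mice 1 to 6. Per kb it made up 57.95 to 68.3% of the sum of Cox8a and Cox8b in retro-orbital tumors, against 1.18 to 3.63% in control kidneys. The kidney tumors varied widely, and the difference did not pass the test (log2 fold change 3.20, SE 1.30, edgeR adjusted p = 0.117). It was 6.03 with mouse as a block (SE 1.56, edgeR adjusted p = 0.0618), it passed without mouse 5 (5.01, edgeR adjusted p = 0.028), and it passed with all groups in a joint fit. The skeletal muscle markers summed to 37.6 to 98.4 CPM in these tumors and Ckm, Myh2, Myh4, Actn3 and Myod1 were under 1 CPM in each. Among brown fat markers, Ucp1, Cidea and Elovl3 were also under 1 CPM in each, while Ppargc1a, a coactivator of mitochondrial biogenesis that many tissues express, made up nearly all of the list's sum. That sum, without Cox8b, was 787.7 to 1100 CPM in retro-orbital tumors, 505.6 to 1645 CPM in brain tumors, 361.2 to 892 CPM in kidney tumors and 308.9 to 347.2 CPM in control kidneys. The part of these markers in the level of Cox8b was not tested.

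**Figure D5:**
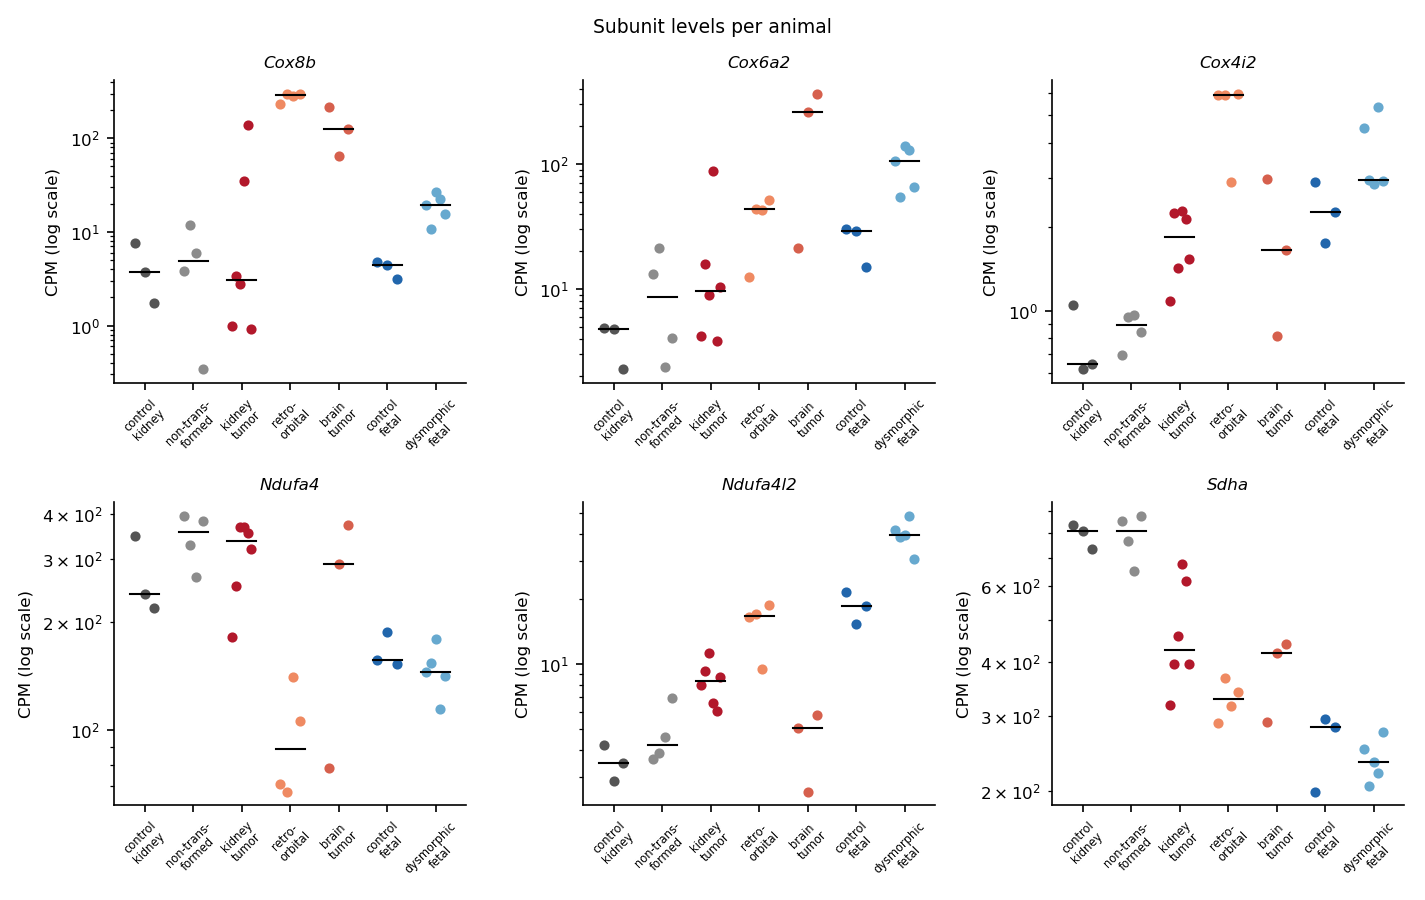
Level in CPM, on log axes, of 6 nuclear subunits in each animal (points) of the 7 groups, with group medians (bars). Cox8b was 232.6 CPM or more in the 4 retro-orbital tumors, Ndufa4 was 141 CPM or less there, and Ndufa4l2 and Cox6a2 were higher in dysmorphic than in control fetal kidneys.

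Brain tumors had more mt-Nd6 and Ndufc2 than kidney tumors, 2 of 96 members, where 8.74% of all genes were called. mt-Nd6 had 181.1, 238.8 and 279.2 CPM in brain tumors against 78.4 to 129.9 CPM (median 113.2) in kidney tumors (log2 fold change 1.17, SE 0.18, edgeR adjusted p = 0.0115). Ndufc2 had 470.2, 552 and 721.6 CPM against 217.4 to 403.4 CPM (0.90, SE 0.20, edgeR adjusted p = 0.0312), and neither overlapped. The other mitochondrial members did not follow mt-Nd6, since 10 of 13 had values below 0, with a median of -0.26 and -0.45 for mt-Nd4, beside 0.03 over all genes. With mouse as a block in the 3 mice that gave both tissues, neither passed the test, at 1.21 for mt-Nd6 (SE 0.32, edgeR adjusted p = 0.306) and 0.99 for Ndufc2 (SE 0.20, edgeR adjusted p = 0.281), and 8 members had an unadjusted p under 0.05, beside 13.1% of all genes. That fit called 0 of all 21827 genes. The count was 1 without mouse 2, mouse 3 or mouse 5 and 2 without any other mouse. Leaving out a mouse, the calls among all genes were 300 to 1528, against 2044 in the fit reported. The nuclear median was 0.19. Cox6a2 had 21.4, 262.5 and 364.3 CPM against 3.84 to 88.6 CPM in kidney tumors (3.37, SE 1.10, edgeR adjusted p = 0.0846), while skeletal muscle markers summed to 54.8 to 319.6 CPM in brain tumors. Markers of brain neurons and glia summed to 124, 1846 and 486.5 CPM in the brain tumors of mice 1, 2 and 4 and to 37.7 to 221.5 CPM in kidney tumors, with 2 of 12 called higher and a median of 5.01. Proximal tubule markers summed to 292.3 to 757.9 CPM in brain tumors against 680.7 to 10130 CPM in kidney tumors. Those of the thick limb, distal tubule and collecting duct summed to 647.9 to 841.9 against 372.4 to 6287 CPM. For proliferation markers the sums were 438.4 to 2028 against 360.4 to 561.2 CPM. The part of all these markers in the values of the members was not tested. Other values, none called, were 0.48 for Sdhb, 0.36 for Uqcrb, 0.50 for Atp5g1, -0.24 for Ndufs7, -0.25 for Sdhc and -0.23 for Ndufa4.

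Brain and retro-orbital tumors differed in no member by the edgeR test, where 1.73% of all genes were called, although 92 of 95 members had higher values in brain tumors. The nuclear median was 0.45, beside 0.04 over all genes, and 44 members had an unadjusted p under 0.05 by edgeR, where 21.5% of all genes had. DESeq2 called 25 higher and 2 lower, where it called 7.01% of all genes higher and 7.63% lower. The joint fit of all groups called 22 higher and 2 lower, beside 8.96% and 6.18% of all genes. Without mouse 1, 6 were higher and 1 lower, where 5.97% of all genes were called. In both DESeq2 and the joint fit the 2 lower members were Cox4i2 and Ndufa4l2, and Ndufa4l2 had 2.57, 5.07 and 5.84 CPM in brain tumors against 9.52 to 18.7 CPM (-1.75, SE 0.38, edgeR adjusted p = 0.0694). Ndufc1 had the highest value in complex I at 1.01 (SE 0.24, edgeR adjusted p = 0.0812). The markers of brain neurons and glia summed to 71.8 to 147.7 CPM in retro-orbital tumors, below all brain tumors but that of mouse 1, and had a median of 5.15 with 0 of 12 called. Their part in the higher member values was not tested. Brain tumors of 3 mice and retro-orbital tumors of 4 mice share only mouse 2, in which Ndufa4 was 290.8 CPM in the brain and 70.9 CPM in the retro-orbital tumor.

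A last fit asked whether the effect of the fusion on the members differed between the adult model (kidney tumors against control kidneys) and the fetal model (dysmorphic against control fetal kidneys). No member of 96 passed the test, where 8.94% of all genes were called, and 18 had an unadjusted p under 0.05, where 24.8% of all genes had. DESeq2 called 0, with 7 at an unadjusted p under 0.05, beside 27.3% of all genes. The difference, adult minus fetal, had a median of 0.38 over nuclear members and 0.02 over the 7 mitochondrial members outside the low stretch, beside 0.16 over all genes. With the 6 of the stretch the mitochondrial median was -0.08. In complex IV all 19 tested members had values above 0, with a median of 0.60. Its highest values among members averaging at least 3 on the log2 CPM scale were 0.94 for Cox6b2 (SE 0.43, edgeR adjusted p = 0.189) and 0.90 for Cox7a2l. The highest values in complexes I, III and V were 0.83 for Ndufc2 (SE 0.27, edgeR adjusted p = 0.0664), 0.86 for Uqcrq and 0.74 for Atp5j2, and the lowest nuclear value was that of Sdha at -0.51 (SE 0.28, edgeR adjusted p = 0.272). Without mouse 1, 16 of 95 members were called, all higher, where 7.80% of all genes were called higher. Without control mouse 1 it was 1, Cox7c, where 1347 of all 25268 genes were called. By length, nuclear members had medians of 0.57, 0.25 and -0.05 from the shortest to the longest class, where other protein-coding genes had 0.72, 0.46 and 0.16. The comparisons above share samples, with control kidneys, kidney tumors and control fetal kidneys each in more than one, so their values are given side by side and not as independent evidence.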

How the data were processed

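RNA of 36 formalin-fixed mouse libraries, made, per the labels, with a stranded total RNA kit without removal of ribosomal RNA, was deposited by the authors as raw counts per gene in 2 tables. Fetal and adult libraries were in separate tables. The submitters' processing notes name FastQC, MultiQC, Bowtie2 and STAR 2.5.2a and the build GRCm38 (mm10), and the counting tool, annotation and handling of reads with several matches are not given in the sources used here. Counts summed to 80205573 to 121415057 per library, and the errors given are spreads between animals. Of counts from 1 to 20, 79.04 to 84.33% were even, so an alternative halved all counts. Gene IDs were matched to GENCODE M21 without version (53274 of 53379).

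Members and lists were chosen with earlier results of these data known. Libraries of the same animal and group were summed (8 pairs), and no 2 libraries agreed within sampling noise. edgeR 4.0.16 in R 4.3.3 was run with TMM scaling, its default filter on low counts, the quasi-likelihood F test and Benjamini-Hochberg adjustment over all genes tested at 0.05, separately for each comparison. Levels are TMM-scaled CPM, the SE is the log2 fold change divided by the root of F, and levels per kb use the annotated transcript. The procedure was tested on simulated data. Genes named were drawn mainly from 4 sources, and not all genes of each are named. These were the highest and lowest fold changes per complex and among mitochondrial members, averaging at least 3 on the log2 CPM scale. The others were the restricted isoforms, members that passed the test and genes of the lists. Where the same mice gave both tissues, mouse was a block in an alternative. Deviations of paired tissues correlated at 0.253 to 0.323 for retro-orbital and kidney tumors, -0.047 to 0.162 for non-transformed kidneys and tumors, and -0.077 to -0.058 for brain and kidney tumors (16173 genes). Further alternatives were RLE and upper quartile scaling, scaling without mitochondrial genes, DESeq2 1.42.0, no filter, a joint fit of all groups, sex as a covariate and leaving out each animal.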

Additional observations from a re-analysis of the deposited data

Results flagged for a closer look

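There were 5 values that stood apart from the other animals of their group by Dixon's test at the 95% level, among 68 groups of values (17 quantities in 4 groups of 4 to 10 animals), where chance gives about 1 in 20. The summed mitochondrial members were 32440 CPM in the kidney tumors of mouse 5 against 17920 to 23070 CPM in the other mice. Cox8b was 137.4 CPM in the kidney tumors of mouse 5 against 0.922 to 35.0 CPM, where skeletal muscle markers summed to 251.3 CPM in mouse 5. Cox6a2 was 88.6 CPM in the kidney tumors of mouse 4 against 3.84 to 16.0 CPM, and there the skeletal muscle markers summed to 1378 CPM in mouse 4 against 41.6 to 900.6 CPM in the other mice. The part of muscle in both values was not tested. Cox4i2 was 2.89 CPM in the retro-orbital tumor of mouse 5 against 5.90 to 5.98 CPM. Cox6b2 was 9.81 CPM in dysmorphic fetus 2 against 6.44 to 6.67 CPM.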

How the results depend on the processing

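For control fetal against control kidneys, all alternatives kept the count of members called within 1.5 times the value reported, with 55 to 65 when an animal was left out. Elsewhere the counts were small and moved, as did the calls among all genes. For kidney tumors against control kidneys the calls among all genes were 4474 in the fit reported, 7070 with DESeq2 and 6118 with sex as a covariate. For kidney tumors against control kidneys (3) the count was 5 with upper quartile scaling, 7 with DESeq2, 1 without the filter, 8 with the joint fit, 8 with sex as a covariate, and 0 (without control mouse 2 or 3) to 19 (without mouse 1) when an animal was left out. For kidney tumors against non-transformed kidneys (2) it was 5 with DESeq2, 0 without the filter (9 at an unadjusted p under 0.05 by edgeR), 5 with the joint fit, 1 with sex as a covariate and 0 to 1 when an animal was left out. For retro-orbital against kidney tumors (6) it was 15 with the joint fit and 2 (without mouse 2 or 3) to 26 (without mouse 1). For brain against kidney tumors (2) it was 4 with the joint fit and 1 to 2. For brain against retro-orbital tumors (0) it was 27 with DESeq2, 24 with the joint fit and 0 to 7 (without mouse 1). For dysmorphic against control fetal kidneys (3) it was 8 with DESeq2, 0 with the joint fit, 0 with sex as a covariate and 0 to 4 (without dysmorphic fetus 2). For the difference between the models (0) it was 1 with the joint fit and 0 to 16 (without mouse 1). The causes were not tested. With mouse as a block, where the fit had only the mice that gave both tissues, the count was 0 for kidney tumors against non-transformed kidneys, 0 for brain and 6 for retro-orbital against kidney tumors, and the calls it changed are given with those comparisons. The brain fit with the block and the 6 fetal fits that left out an animal and gave 0 called 0 of all genes. The fetal title prefix as a block gave 2, without Cox6a2. No named value that was called changed sign.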
